A study of Papio anubis with 40 samples.

Results

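Transfer RNAs that carry glycine to the codon GGG have the anticodon CCC, and the fragments described here are pieces of their 5' side that were found in baboon serum. Members were all fragments of 30 to 36 nt whose identifier encodes the first 20 bases of this tRNA. There were 218 of them among 58587 fragments in the deposited table, and they held 19424334 of 130892201 counts, or 14.8%. The identity was checked in longer fragments with the same start: 112 fragments of at least 42 nt, with 8654 counts in all, reached past the anticodon. In 91 of these, bases 38 to 42 were complementary to bases 26 to 30, which leaves a loop of bases 31 to 37 with CCC at bases 33 to 35, the place and letters of a Gly-CCC anticodon.

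Ribonucleases, angiogenin among them, cut mature tRNAs in the anticodon loop when cells are stressed, and the resulting long 5' pieces are released into blood, where those of glycine, valine and glutamate tRNAs are known to be abundant. Their 3' end records where the tRNA was cut or how far the end was trimmed afterwards. Extracellular 5' pieces of glycine tRNAs are known to be protected from ribonucleases by pairing with themselves or with other RNAs, and part of the circulating pool is carried by ribonucleoproteins rather than vesicles.

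Serum, 0.5 mL per draw, came from 8 olive baboons (Papio anubis), each drawn at months 0, 3, 6, 9 and 15, giving 40 libraries. The month 0 draw preceded laparoscopic placement of menstrual tissue in the peritoneal cavity, by which endometriosis is set off in baboons, and all later draws followed it. Every library, those of month 0 included, is titled "Baboon with Endometriosis" and carries the label "No treatment". No animal without inoculation was drawn, and the labels give no ages. A difference between months therefore cannot be told apart from age or from anything else that changed between draws. Release from more cells, more release per cell and slower decay in blood also cannot be told apart in these data.

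The 7 fragments that match the tRNA without a substitution form a ladder of ends, and they are printed because the differences between months followed their last bases. Capitals mark the bases after position 30, the last base of the stem before the anticodon loop.

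tRF-30-Q1Q89P9L8422: gcgccgctggtgtagtggtatcatgcaaga
tRF-31-Q1Q89P9L8422E: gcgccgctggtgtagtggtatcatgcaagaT
tRF-32-Q1Q89P9L8422Q: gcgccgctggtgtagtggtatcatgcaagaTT
tRF-33-Q1Q89P9L842205: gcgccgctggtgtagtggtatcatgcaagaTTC
tRF-34-Q1Q89P9L8422KJ: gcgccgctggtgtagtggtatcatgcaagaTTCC
tRF-35-Q1Q89P9L8422YR: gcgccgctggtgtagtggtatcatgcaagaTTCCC
tRF-36-Q1Q89P9L8422YRB: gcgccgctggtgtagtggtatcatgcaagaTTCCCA

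The 30-nt fragment thus ends at the foot of the loop, the 32-nt fragment ends just before the anticodon, those of 33 and 34 nt end inside it, and those of 35 and 36 nt hold all of it. Below, these 7 are called the main fragments of their length. The other 211 members each differ from the main fragment of their length by exactly 1 base, at position 21 or later because the first 20 bases were fixed by the choice of members. No member had more than 1 substitution.

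The 2 main fragments of 30 and 32 nt held 93.6% of the members' counts, and the 7 main fragments together held 96.1%. By length, members of 30 nt held 48.1%, of 31 nt 2.36%, of 32 nt 49.3%, of 33 nt 0.110%, of 34 nt 0.0876%, of 35 nt 0.0745% and of 36 nt 0.00232%. The ladder therefore has 2 tall steps with a low step between them, and beyond the loop's first pair of bases it falls steeply. Among all 58587 fragments, the 32-nt main fragment ranked 4 by total count (9181680 counts, 7.01% of all) and was the most abundant fragment of 4 libraries. The 30-nt main fragment ranked 5 (9003768 counts, 6.88% of all) and lay between rank 2 and rank 10 in every library. The 31-nt main fragment ranked 25, and those of 33 to 35 nt ranked 256 to 291.

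Library totals were 198840 counts for PA8001 at month 0 and 889540 to 6245450 for the other 39, with a median of 3269160. There were 3 libraries that stood apart in the members' share of counts: PA8001 at month 0 (42.0%), PA8001 at month 15 (37.4%) and PA8003 at month 15 (60.2%). The other 6 libraries of month 15 lay between 11.9% and 20.5%. For the main results at month 15 the values without the last draws of PA8001 and PA8003 are given beside those with them. The members' share of each library was 19.1% ± 10.2 (SD, n = 8) at month 0, 14.1% ± 6.61 at month 3, 11.3% ± 4.19 at month 6, 12.6% ± 2.53 at month 9 and 25.0% ± 16.1 at month 15. Without PA8001 the month 0 value was 15.8% ± 4.60 (n = 7), and without PA8001 and PA8003 the month 15 value was 17.1% ± 3.14 (n = 6). Within animals, the share was lower than at month 0 in 8 of 8 at month 6 and in 7 of 8 at month 9, and at month 15 it was higher than at month 0 in 5 of 8.

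As a percent of the library's counts, the 30-nt main fragment ranged at month 0 from 4.33% in PA8873 to 13.4% in PA8001, with a median of 8.07%. At month 6 it ranged from 3.18% in PA8914 to 9.10% in PA8835, with a median of 6.40%. At month 15 it ranged from 3.51% in PA8915 to 10.5% in PA8001, with a median of 7.36%. The medians at months 3 and 9 were 6.81% and 6.54%, and the ranges of all 5 months overlapped. Within animals this share was lower than at month 0 in 7 of 8 at month 6 (means 6.04% and 8.42%) and in 6 of 8 at month 15. The fitted change at month 6 against month 0 was -0.36 ± 0.286 on the log2 scale and did not pass the test described below (edgeR adjusted p = 0.646).

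The 32-nt main fragment was lower at months 3, 6 and 9 than at either end of the series in the medians. At month 0 it ranged from 3.14% in PA8914 to 23.9% in PA8001, with a median of 8.29%, and the second highest animal had 9.79%. The medians were 5.21% at month 3, 3.63% at month 6 and 4.29% at month 9, and the highest values of these months were 13.2% (PA8003), 8.75% (PA8001) and 7.66% (PA8835). At month 15 the 8 animals had 24.1% (PA8001), 48.1% (PA8003), 6.75% (PA8835), 9.19% (PA8872), 13.5% (PA8873), 8.11% (PA8912), 10.4% (PA8914) and 7.28% (PA8915). The lowest animal of month 15 lay above the median of each month from 3 to 9, and the ranges still overlapped. The mean at month 15 was 15.9% ± 14.2 (n = 8), or 9.21% ± 2.49 (n = 6) without PA8001 and PA8003, against 4.37% ± 2.22 (n = 8) at month 6.

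**Figure D1:**
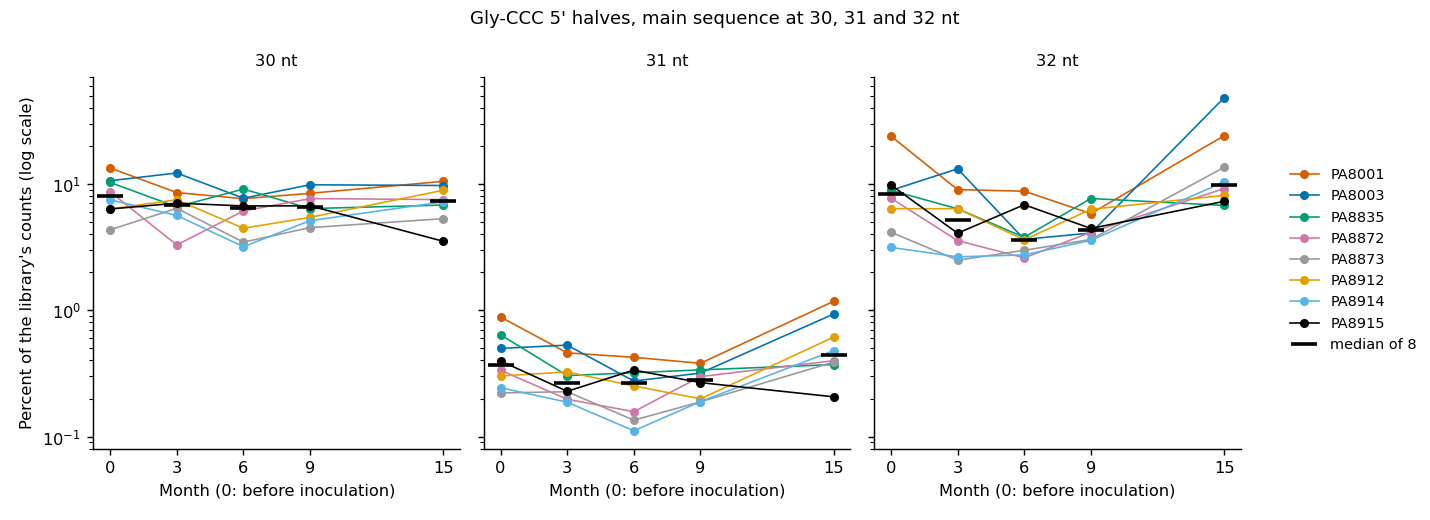
Percent of each library's counts (log axis) in the main fragments of 30, 31 and 32 nt, by months since inoculation. Points joined by lines are the 8 animals and black bars are the medians, which for 32 nt run from 8.29% at month 0 through 3.63% at month 6 to 9.79% at month 15 and for 30 nt stay between 6.40% and 8.07%.

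Each fragment was tested in a model of all 40 libraries with month and animal as terms, after scaling of the library totals, and 2447 fragments passed the filter on low counts. Of the 218 members 82 passed it, and 59 members had fewer than 10 counts in all. The tested members were 27 of 31 at 30 nt, 17 of 34 at 31 nt, 31 of 37 at 32 nt, 4 of 27 at 33 nt and 1 each at 34, 35 and 36 nt. Changes are log2 differences with standard errors (SE) from edgeR's quasi-likelihood test, and p-values were adjusted by the Benjamini-Hochberg method over all 2447, and members with an adjusted value under 0.05 are said to pass. The comparisons of month 15 share the month 15 libraries with one another, and those with month 0 share the month 0 libraries, so they are not independent. Members of different length or with 1 base substituted come from the same libraries and largely share their sequence, so they are not independent either.

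Against month 0, no member passed at month 3, 6 or 9 with edgeR, and none of the 2447 fragments did (0%). At an unadjusted p under 0.05 there were 2, 18 and 8 members, and DESeq2 and limma-voom also passed 0 members in each of these comparisons. The median change of the tested members was -0.39 at month 3, -0.57 at month 6 and -0.40 at month 9, against 0.10, 0.01 and 0.06 over all tested fragments.

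At month 15 against month 0, 1 of 82 members (1.22%) was higher and passed, against 2.21% of all tested fragments, so the members' share of passes was near the background. Against month 3, 27 members (32.9%) passed at month 15 and all were higher, against 7.19% of all fragments that passed as higher. Against month 6 the members that passed were 42 (51.2%, background 17.0%), and against month 9 they were 39 (47.6%, background 18.2%), again all higher. In the joint test of whether any months differ, 31 members passed (37.8%, background 16.2%). Median changes of the members at month 15 were 0.42 against month 0, 0.79 against month 3, 1.04 against month 6 and 0.93 against month 9, beside 0.05, -0.11, -0.06 and -0.04 over all fragments.

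These counts depended on which libraries were included. With the last draws of PA8001 and PA8003 left out, 0 members passed against months 0 and 3. Against month 6, 10 of 83 tested members passed, and 1 did against month 9. Of the 2591 fragments tested in that fit, 0 passed against months 0 and 3. Against month 6, 99 passed (84 higher), and against month 9, 16 did (8 higher), so calls were lost over the whole table. Leaving out all 5 libraries of 1 animal changed the 27 members of month 15 against month 3 to 0 without PA8873, 0 without PA8914 and 3 without PA8003. They became 15 without PA8915, 16 without PA8872, 20 without PA8912, 30 without PA8001 and 33 without PA8835. Calls over all tested fragments, 272 with every animal, were 0, 0, 23, 116, 165, 172, 175 and 364 in the same order. Against month 9 the 39 members became 11 without PA8003 and 29 without PA8001, and calls over all fragments went from 749 to 189 and 444. Against month 6 the count stayed between 30 (without PA8003) and 47 (without PA8001), and calls over all fragments went from 650 to 310 and 492.

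The 30-nt length stood apart, as no member of it passed in any comparison, while members of 31 to 33 nt were found on both sides of the threshold. Of the 27, 42 and 39 members that passed at month 15 against months 3, 6 and 9, 22, 28 and 23 were of 32 nt and 4, 10 and 12 were of 31 nt. The remaining 1, 4 and 4 were of 33 or 34 nt, and the tested members of 35 and 36 nt did not pass. At month 15 against month 6, the median change was 0.09 at 30 nt, 0.94 at 31 nt, 1.56 at 32 nt and 1.65 at 33 nt, and the single tested members of 34, 35 and 36 nt had 2.81, 1.28 and 1.50. Against month 0 the same medians were -0.14, 0.42, 0.84 and 0.69, and the single members had 1.85, 1.30 and 0.62. All 31 tested members of 32 nt had a positive change at month 15 against months 3, 6 and 9, and 30 of 31 did against month 0. After the last draws of PA8001 and PA8003 were left out, the medians at 30, 31, 32 and 33 nt were 0.12, 0.83, 1.31 and 1.01 against month 6 and -0.15, 0.32, 0.51 and -0.21 against month 0. Members that passed against month 6 were then 1 of 31 nt, 8 of 32 nt and 1 of 33 nt, and against month 9 there was 1, of 31 nt.

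**Figure D2:**
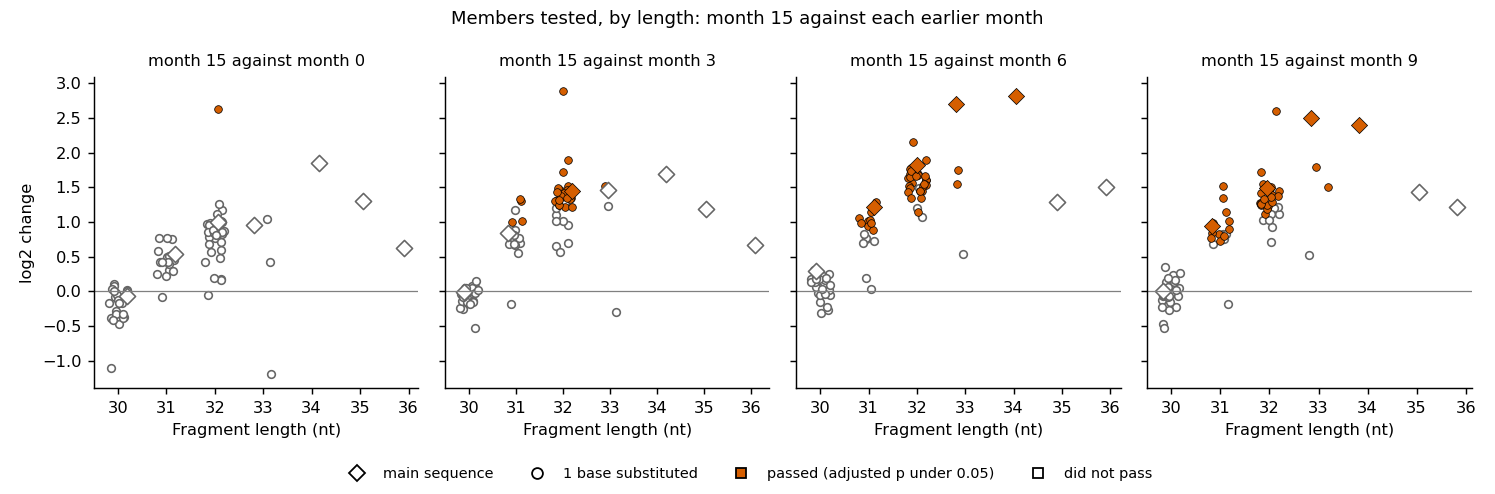
Log2 change at month 15 against months 0, 3, 6 and 9 for the 82 tested members, by fragment length in nt. Diamonds are main fragments, circles are fragments with 1 base substituted and orange marks an adjusted p under 0.05; at 30 nt the points lie around 0 and none is orange, and at 32 nt they lie above 0 with 22, 28 and 23 orange against months 3, 6 and 9.

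The 32-nt main fragment, which ends just before the anticodon, was higher at month 15 by 1.45 ± 0.346 (SE) against month 3 (edgeR adjusted p = 0.0281, higher in 8 of 8 animals). It was higher by 1.82 ± 0.355 against month 6 (adjusted p = 0.00447, 7 of 8) and by 1.49 ± 0.349 against month 9 (adjusted p = 0.00788, 8 of 8). Against month 0 the difference was 1.00 ± 0.346 with an adjusted p of 0.117 and a 95% interval of 0.32 to 1.68, and 6 of 8 animals were higher. With the last draws of PA8001 and PA8003 left out, the differences were 0.40 (adjusted p = 0.680) against month 0, 0.80 (0.255) against month 3, 1.23 (0.0308) against month 6 and 0.89 (0.0840) against month 9. Only the difference from month 6 passed then. The difference from month 3 also missed the threshold without all libraries of PA8003 (1.03, adjusted p = 0.0508), PA8873 (1.37, 0.0910) or PA8914 (1.43, 0.0754).

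The 30-nt main fragment, which ends at the foot of the loop, did not pass in any of these comparisons. Its change at month 15 was -0.07 ± 0.286 against month 0 (edgeR adjusted p = 0.904, 95% interval -0.63 to 0.49), -0.01 against month 3 (0.976, -0.58 to 0.55), 0.29 ± 0.290 against month 6 (0.452, -0.27 to 0.86) and 0.00 against month 9 (0.996, -0.56 to 0.56). Each interval lies below the fitted change of the 32-nt fragment, which has its own error, and against month 0 the intervals of the 2 fragments overlap. Setting them side by side does not test a difference between the 2 fragments, which are compared within libraries further below. The 31-nt main fragment, with 1 base of the loop, lay between them: 0.53 against month 0 (adjusted p = 0.281), 0.84 ± 0.290 against month 3 (0.0510), 1.22 ± 0.297 against month 6 (0.00668) and 0.93 ± 0.291 against month 9 (0.0183). Without the 2 libraries named above, its changes against months 6 and 9 were 0.83 (adjusted p = 0.0759) and 0.53 (0.222) and no longer passed. The change against month 9 also missed the threshold without all libraries of PA8003 (0.76, adjusted p = 0.0906) or PA8912 (0.83, 0.0557), and that against month 3 passed without PA8835 (0.90, 0.0418) or PA8915 (0.95, 0.0499) and without PA8001 at month 0 (0.83, 0.0497).

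The 32-nt and 30-nt main fragments can be compared within each library, which removes any scaling of the totals. This ratio was chosen after the values were seen. The number of 32-nt counts per 30-nt count had a median of 0.924 at month 0 (range 0.420 in PA8914 to 1.79 in PA8001), 0.908 at month 3 (0.389 to 1.08), 0.836 at month 6 (0.415 to 1.15) and 0.695 at month 9 (0.415 to 1.20). At month 15 the animals had 2.30 (PA8001), 4.96 (PA8003), 0.993 (PA8835), 1.22 (PA8872), 2.55 (PA8873), 0.911 (PA8912), 1.44 (PA8914) and 2.07 (PA8915), with a median of 1.76. The 6 highest of these lay above every value of months 3, 6 and 9, and the other 2 lay within those ranges.

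In log2, the ratio at month 15 exceeded that of month 3 by 1.23 ± 1.03 (SD, n = 8), and it was higher in 8 of 8 animals (exact two-sided sign-flip test, p = 0.00781, adjusted p = 0.0273 over 7 comparisons). The difference was 1.33 ± 0.94 against month 6 (8 of 8 animals, exact p = 0.00781, adjusted p = 0.0273) and 0.88 ± 0.93 against month 0 (7 of 8, exact p = 0.0156, adjusted p = 0.0365). Against month 9 it was 1.28 ± 1.25 (6 of 8 animals, exact p = 0.0313, adjusted p = 0.0547) and did not pass. With 8 animals the smallest p this exact test allows is 0.0078. Leaving out 1 animal at a time gave adjusted p of 0.0365 to 0.0729 against month 0 and 0.0365 to 0.0547 against months 3 and 6 (exact test). These calls were therefore not kept in every such fit, where the smallest exact p is 0.0156. With the last draws of PA8001 and PA8003 left out, the mean difference was 0.69 against month 0, 1.08 against month 3 and 1.05 against month 6, from 6 animals, and 0.82 against month 9. The ratio was higher at month 15 in 5, 6, 6 and 4 of these 6 animals against months 0, 3, 6 and 9. None passed then (exact test, adjusted p = 0.146, 0.109, 0.109 and 0.175). For 6 animals the smallest exact p is 0.0313, which was met against months 3 and 6, while the exact p was 0.0625 against month 0 and 0.125 against month 9. The adjustment over the 7 comparisons also takes in months 3, 6 and 9 against month 0. With their p-values as they were, no comparison of month 15 could reach an adjusted value under 0.05. That none passed was therefore fixed by the number of animals together with those p-values. The ratios at months 3, 6 and 9 against month 0 had differences of -0.34, -0.45 and -0.40, and none passed (exact p = 0.25, 0.102 and 0.195).

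**Figure D3:**
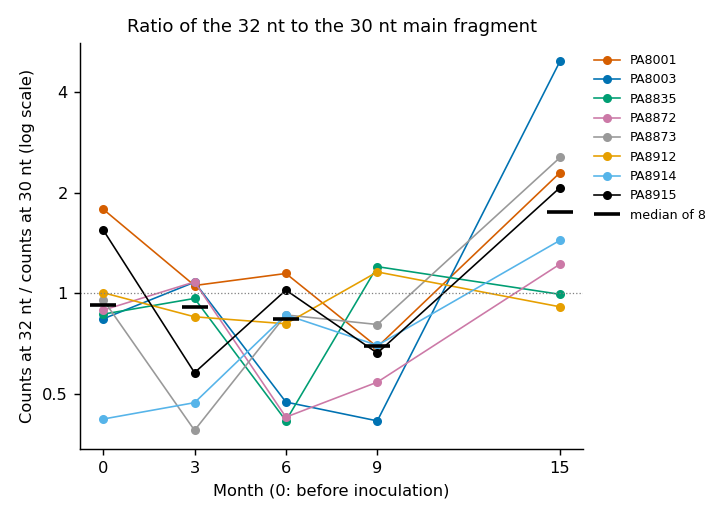
Counts of the 32-nt main fragment per count of the 30-nt main fragment (log axis), by months since inoculation. Each line is 1 animal and black bars are medians of 8 animals: the medians lie between 0.695 and 0.924 up to month 9 and at 1.76 at month 15, with PA8003 highest at 4.96.

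The fragments that end inside or just past the anticodon were rare and varied more between animals. The 33-nt main fragment, which ends at the first anticodon base, had medians of 80.1 CPM (unscaled counts per 1000000 counts of the library) at month 0, 35.8 at month 3, 25.9 at month 6, 20.7 at month 9 and 65.7 at month 15. Its range at month 15 was 26.3 in PA8912 to 2651 in PA8001. Its change at month 15 was 2.70 ± 0.703 against month 6 (edgeR adjusted p = 0.00790, 8 of 8 animals) and 2.51 ± 0.699 against month 9 (0.0124, 8 of 8), while 0.95 against month 0 and 1.46 against month 3 did not pass. The values depended on PA8001: without that animal the change was 1.73 against month 6 (adjusted p = 0.0177), 1.45 against month 9 (0.0438) and -0.11 against month 0. With the last draws of PA8001 and PA8003 left out, the changes against months 6 and 9 were 1.21 (adjusted p = 0.142) and 1.19 (0.128).

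The 34-nt main fragment, which ends at the middle base of the anticodon, had medians of 36.3, 54.4, 35.6, 49.6 and 123 CPM at months 0, 3, 6, 9 and 15. At month 15 its lowest value was 67.7 and its highest was 1647 in PA8914. It was higher at month 15 by 2.81 ± 0.776 against month 6 (edgeR adjusted p = 0.00974, 7 of 8 animals) and by 2.40 ± 0.755 against month 9 (0.0192). The change of 1.85 ± 0.817 against month 0 did not pass (adjusted p = 0.197), and without PA8001 and PA8003 at month 15 the changes against months 6 and 9 were 2.27 (0.0777) and 1.84 (0.124). The change against month 9 was 1.91 (adjusted p = 0.0691) without all libraries of PA8001 and 2.35 (0.0574) without those of PA8003, and the change against month 0 passed without those of PA8872 (2.83, 0.0338).

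The 35-nt main fragment, which holds the whole anticodon, had medians of 57.5, 52.3, 58.0 and 58.6 CPM at months 0, 3, 6 and 9 and 202 at month 15, where it ranged from 54.7 to 910. Its changes of 1.30, 1.19, 1.28 and 1.43 at month 15 against months 0, 3, 6 and 9 did not pass (edgeR adjusted p = 0.240, 0.191, 0.113 and 0.0737), and they were 0.85, 0.78, 0.85 and 1.04 with the last draws of PA8001 and PA8003 left out. The 36-nt main fragment had 0 to 60 counts per library and medians of 1.82, 1.46, 2.14, 1.59 and 5.92 CPM. Its share of the library was higher at month 15 than at month 6 in 8 of 8 animals (means 0.000561% and 0.000190%), with a fitted change of 1.50 ± 0.690 that did not pass (edgeR adjusted p = 0.0973). Its other changes did not pass either.

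**Figure D4:**
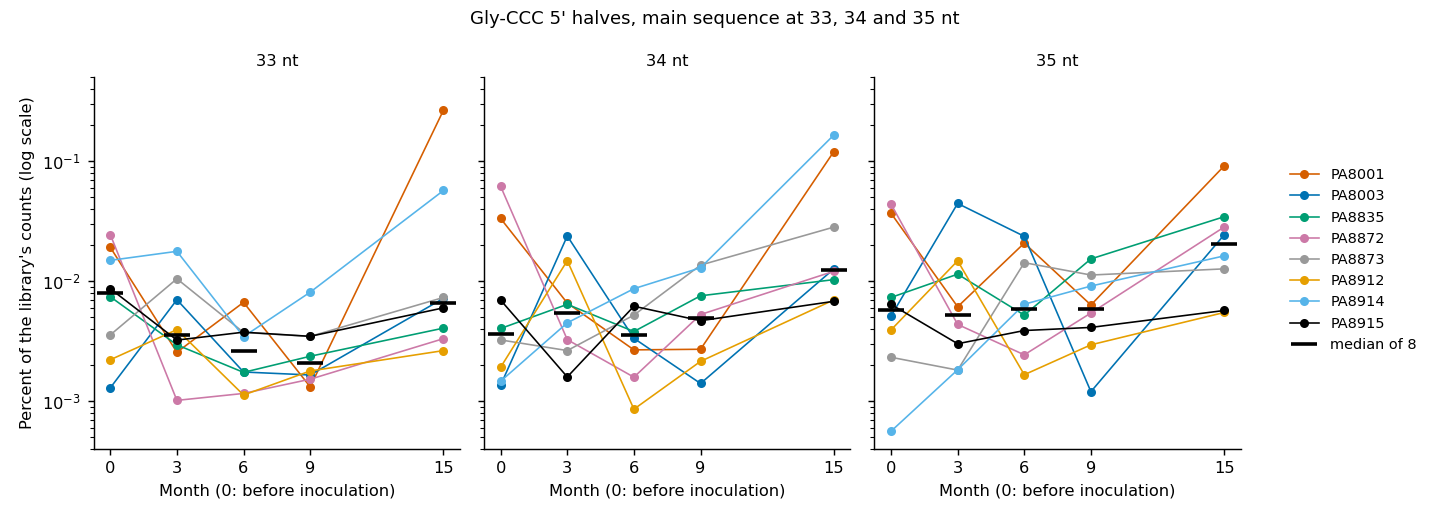
Percent of each library's counts (log axis) in the main fragments of 33, 34 and 35 nt, by months since inoculation, with 1 line per animal and black bars for the medians of 8 animals. Single libraries stand far above the rest, such as PA8001 at month 15 for 33 nt (0.265%, next 0.0568%).

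Members with 1 base substituted made up 3.65% of counts at 30 nt, 5.00% at 31 nt and 4.03% at 32 nt. All 30 substitutions that are possible at positions 21 to 30 were present at 30 nt, as were all 33 at 31 nt and all 36 at 32 nt. At 33, 34, 35 and 36 nt, 26 of 39, 33 of 42, 32 of 45 and 21 of 48 possible ones were present. Substitutions are written with the main fragment's base, the position counted from 1 at the 5' end and the substituted base. Transitions (A with G, C with T) made up 76.4% of the substituted counts at 30 nt and 79.9% at 32 nt.

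The same substitutions had a similar weight at both abundant lengths. The most frequent was A28G, with 0.508% of the main fragment's counts at 30 nt and 0.502% at 32 nt. T21C had 0.486% and 0.474%, A30G 0.459% and 0.443%, and A23G 0.355% and 0.338%. C22G, among the least frequent, had 0.000589% and 0.000403%. Over the 30 substitutions found at both lengths the percent at 32 nt divided by that at 30 nt had a median of 0.934, and 29 of 30 lay within a factor of 1.5. The exception was C26G, with 0.00857% at 30 nt and 0.0169% at 32 nt. The A28G and C26G fragments are printed with the substituted base in capitals, since they are the most abundant and the most deviating of the set.

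tRF-30-Q1Q89P9L84J2: gcgccgctggtgtagtggtatcatgcaGga
tRF-32-Q1Q89P9L84J2Q: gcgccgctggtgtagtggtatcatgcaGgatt
tRF-32-Q1Q89P9L84O2Q: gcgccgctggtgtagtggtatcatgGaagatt

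**Figure D5:**
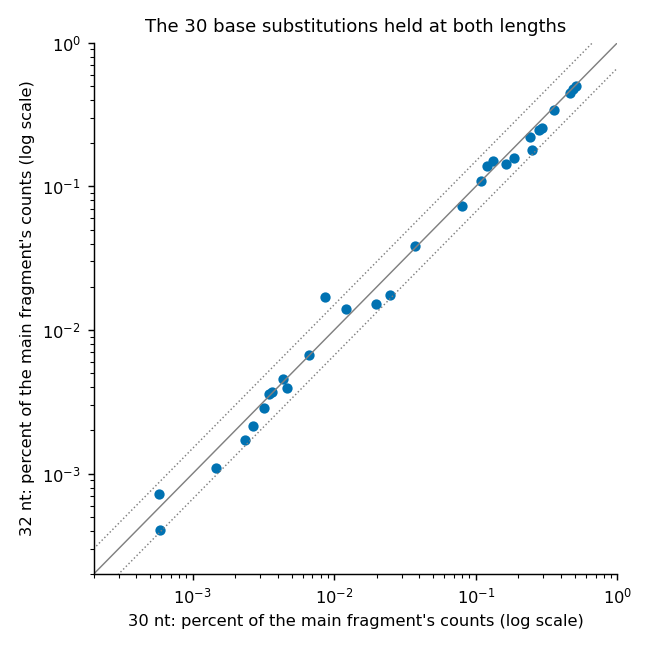
Counts of each of 30 single-base substitutions as a percent of the main fragment's counts, at 30 nt (x axis) and 32 nt (y axis), both log axes, summed over 40 libraries. Dotted lines mark a difference of 1.5-fold, and 29 of 30 substitutions lie between them, C26G being the exception.

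The total of substituted fragments also varied together at both lengths. Per library it was 1.87% to 8.73% of the 30-nt counts (median 3.90%) and 2.05% to 9.74% of the 32-nt counts (median 4.23%). The 32-nt percentage was the higher in 40 of 40 libraries, by 1.06 to 1.26 times, and the percentages at the 2 lengths had a Pearson r of 0.998 over the 40 libraries, a description of values that share library, depth and sequencing run. The 32-nt fragment has 2 more positions at which a substitution can be counted.

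Because each substituted fragment is counted apart from its main fragment, the difference between lengths was seen in each of them. For 25 substitutions both the 30-nt and the 32-nt fragment were tested, and in 25 of 25 the log2 change at month 15 was larger at 32 nt, in each of the comparisons with months 0, 3, 6 and 9. The median gap was 0.97, 1.34, 1.49 and 1.29. Without the libraries of PA8001 and PA8003 at month 15 it was 0.67, 0.96, 1.18 and 1.00, again with 25 of 25 larger at 32 nt. The A28G fragment of 32 nt, for example, changed by 1.49 ± 0.405 at month 15 against month 6 (edgeR adjusted p = 0.00903, 8 of 8 animals), and the A28G fragment of 30 nt had 0.06 ± 0.233 (adjusted p = 0.858). The T21C fragment of 32 nt changed by 1.53 ± 0.409 (adjusted p = 0.00854), and its 30-nt counterpart had 0.09 ± 0.234 (0.773). The A23G fragment of 32 nt changed by 1.54 ± 0.404 (0.00821), beside 0.04 ± 0.233 (0.919) at 30 nt. Without those 2 libraries, the 32-nt fragments with A28G, T21C and A23G had 1.26, 1.31 and 1.33 and missed the threshold (edgeR adjusted p = 0.0594, 0.0526 and 0.0513). These fragments are not independent of their main fragments, which gave 1.82 and 0.29.

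Other 32-nt fragments that passed with the same sign in at least 7 animals changed by similar amounts. In the comparison of month 15 with month 6, G25A changed by 1.73, A30C by 1.78, A28C by 1.76 and C26A by 1.89 (edgeR adjusted p between 0.00447 and 0.00677). In the comparison with month 3, C26T changed by 1.89 ± 0.465 and A30C by 1.51 ± 0.398 (edgeR adjusted p = 0.0281 for each). Among 31-nt fragments, A30C changed by 1.30 ± 0.266 at month 15 against month 3 (adjusted p = 0.0281, 8 of 8 animals) and by 1.01 ± 0.262 against month 6 (0.00761, 8 of 8). When the last draws of PA8001 and PA8003 were left out, G25A, A30C, A28C and C26A of 32 nt had 1.38, 1.46, 1.44 and 1.64 against month 6 and still passed (edgeR adjusted p = 0.0350, 0.0401, 0.0401 and 0.0470). The calls against month 3 were lost, with C26T at 1.60 (0.245), A30C of 32 nt at 1.08 (0.265) and A30C of 31 nt at 1.21 (0.245), as was that of A30C of 31 nt against month 6 (0.93, 0.0504).

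C26G at 32 nt was the single member that passed at month 15 against month 0, by 2.63 ± 0.746 (edgeR adjusted p = 0.0496, 6 of 8 animals). Its change was 2.88 against month 3 (0.0281), 2.15 against month 6 (0.0351) and 2.60 against month 9 (0.0124). Its medians were 6.06 CPM at month 0, 5.54 at month 3, 6.15 at month 6, 4.78 at month 9 and 26.8 at month 15, and its highest value, 122, was in PA8914 at month 15. In counts, PA8914 had 368 at month 15, PA8003 had 124 and PA8915 had 97, but PA8835 had 268 at month 6. As a percent of the 32-nt main fragment it was 0.212% in that PA8835 library and 0.117% in PA8914 at month 15, against a median of 0.00959% over 40 libraries. In the PA8835 library the C26G fragment of 31 nt was also at its highest, 1.24% of the 31-nt main fragment against a median of 0.0110%, and at 30 nt it was 0.0269% against 0.00868%. Against month 0 it passed in 7 of 19 other settings and did not in 12, among them the fits without PA8001, PA8003, PA8873, PA8912, PA8914 or PA8915. Over all 19 settings its change against month 0 was 1.75 to 3.10. The changes against months 3 and 6 also missed the threshold without PA8003 (2.99, adjusted p = 0.0508, and 1.88, 0.109), PA8873 (2.67, 0.0910, and 1.86, 0.107) or PA8914 (2.03, 0.0754, and 1.28, 0.154), and that against month 6 without PA8915 (2.20, 0.0603). With the last draws of PA8001 and PA8003 left out, none of the 4 passed (2.64, 2.87, 2.15 and 2.59, adjusted p = 0.203, 0.245, 0.114 and 0.0840).

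The 33-nt length was unlike the others in its substitutions: 36.3% of its counts were substituted, 33.8% at the last base, and only 12.0% of substituted counts were transitions. A fragment substituted at its last base is also the main fragment that is 1 base shorter with another base at its end. This reading, and the fragments in the following sentences, were chosen after their values were seen. The capital marks the last base, which differs from the tRNA.

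tRF-31-Q1Q89P9L8422B: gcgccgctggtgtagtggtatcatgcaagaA
tRF-33-Q1Q89P9L84220O: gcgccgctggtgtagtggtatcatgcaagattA
tRF-33-Q1Q89P9L84220P: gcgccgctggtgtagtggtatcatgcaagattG

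T31A, the 30-nt sequence followed by A, had 4206 counts, and C33A, the 32-nt sequence followed by A, had 2651. T31A was 0.0467% of the 30-nt main fragment over all libraries, and from 0.0308% to 0.0660% in single libraries, a 2.14-fold range. C33A was 0.0289% of the 32-nt main fragment and from 0.0157% to 0.0393%, a 2.50-fold range. Other fragments of this kind had wider ranges: T31C spanned 9.73-fold, T32A, which is the 31-nt sequence followed by A, was between 0.0415% and 1.08% of the 31-nt main fragment, and T32C and T32G spanned 14.8-fold and 33.8-fold of it. Of fragments that carry the tRNA's own base, the 31-nt main fragment was 2.58% to 11.2% of the 30-nt one, and the 33-nt main fragment was 0.0145% to 1.10% of the 32-nt one, a 76.0-fold range.

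The changes of T31A and C33A between months were close to those of the main fragments that are 1 base shorter. This did not hold for every fragment of this kind. T31A had -0.08, -0.18, 0.03 and -0.19 at month 15 against months 0, 3, 6 and 9, none of which passed with edgeR, while the 31-nt main fragment had 0.53, 0.84, 1.22 and 0.93. C33A had 1.04 against month 0, which did not pass, and changed by 1.51 ± 0.389 against month 3 (edgeR adjusted p = 0.0281, 8 of 8 animals), 1.75 ± 0.393 against month 6 (0.00575) and 1.50 against month 9 (0.0114). The corresponding values of the 32-nt main fragment were 1.00, 1.45, 1.82 and 1.49. The values of C33A when the last draws of PA8001 and PA8003 were left out were 0.70 against month 3 (adjusted p = 0.265), 0.95 against month 6 (0.0465) and 0.71 against month 9 (0.0982), so that only the call against month 6 was kept. T32A, which also ends in A and had 564 counts, had -0.05, 0.56, 1.14 and 0.93, of which that against month 6 passed (edgeR adjusted p = 0.0340, 8 of 8 animals), beside 0.53, 0.84, 1.22 and 0.93 for the 31-nt main fragment. T31C, the same shorter sequence as in T31A followed by C, had 0.42, 0.77, 0.75 and 0.82, above T31A in each comparison. T32C had 0.77, 1.25, 1.52 and 1.25, above the 31-nt main fragment in each. T32G had 0.16, 1.28, 1.07 and 1.21. C33T had 0.42, 1.23, 1.55 and 1.79, beside the values of the 32-nt main fragment given above.

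C33G behaved otherwise. It held 4094 counts, or 19.1% of all 33-nt counts, and exceeded the 33-nt main fragment in 8 libraries. It was between 0.00140% and 0.220% of the 32-nt main fragment, a 157-fold range. Its medians were 60.9 CPM at month 0, 28.5 at month 3, 12.0 at month 6, 15.9 at month 9 and 23.7 at month 15. Its changes at month 15 were -1.19 against month 0 (edgeR adjusted p = 0.227), -0.30 against month 3, 0.53 against month 6 and 0.53 against month 9, and none passed.

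Shorter fragments with the same first 20 bases, of 25 to 29 nt, end before the last base of the stem, and the 25-nt one ends before the stem begins. Of 103 such fragments 58 were tested, and at month 15 against month 0 none passed with edgeR, with a median change of -0.41. Against month 9, 16 passed and all were lower, 15 of them among the 19 tested fragments of 27 nt, whose median was -0.95, against 12.4% of all tested fragments that passed as lower. When the last draws of PA8001 and PA8003 were left out, the 27-nt median was -0.80 and 0 of the 58 passed. The 27-nt main fragment, tRF-27-Q1Q89P9L842, was 12.4% ± 5.54 (SD, n = 8) of the library at month 0, 13.9% ± 2.62 at month 9 and 8.15% ± 3.73 at month 15. It fell by 1.11 ± 0.373 on the log2 scale at month 15 against month 9 (edgeR adjusted p = 0.0247), and its change against month 0 was -0.66 (0.298). Without those draws the change against month 9 was -1.11 and missed the threshold (0.102). The 29-nt main fragment, 1 base shorter than the 30-nt one, had -0.20, -0.27, 0.01 and -0.32 at month 15 against months 0, 3, 6 and 9, and none passed. Below 27 nt the changes did not follow length. The 25-nt main fragment, tRF-25-Q1Q89P9L84, had 0.57, 0.86, 1.36 and 0.98 at month 15 against months 0, 3, 6 and 9, of which that against month 6 passed (edgeR adjusted p = 0.0183), and 0.71 there (0.218) without the draws named. Against month 9 the main fragments of 26 and 28 nt, tRF-26-Q1Q89P9L84D and tRF-28-Q1Q89P9L84DF, had 0.20 and -0.37 and did not pass.

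Other abundant 5' fragments of 30 to 36 nt were set beside the members by the start of their identifiers, and the difference between their changes and those of the members was not tested. In the comparison of month 15 with month 6, valine fragments (identifiers starting 79MP9P9N) had median changes of -1.17 at 30 nt, -1.10 at 31 nt, -0.27 at 32 nt, 0.81 at 33 nt, 1.63 at 34 nt and 2.03 at 35 nt. With edgeR, 17 of 19 passed as lower at 30 nt and 36 of 44 at 31 nt, against 9.52% of all tested fragments, and 4 of 4 passed as higher at 35 nt, against 17.0%. Without the last draws of the same 2 animals, the medians from 30 to 35 nt were -0.89, -0.78, -0.09, 0.36, 0.65 and 1.79, and the calls that were left were 1 at 30 nt, 2 at 31 nt and 0 at 35 nt. The Gly-GCC fragments (P4R8YP9L) had medians of -0.40 at 30 nt, 0.31 at 31 nt and 1.72 at 32 nt, where 3 of 4 passed as higher, or -0.50, 0.27 and 0.88 without those draws, where 0 passed. The Glu-CTC fragments (87R8WP9N) had -0.76 at 30 nt, -0.48 at 31 nt, 0.56 at 32 nt and 0.80 at 33 nt, or -0.59, -0.29, 0.55 and 0.59 without those draws. The medians of these other tRNAs were thus also larger at each greater length from 30 to 33 nt, or to 32 nt for Gly-GCC. This order did not hold at all greater lengths, where groups had 1 to 3 tested fragments. Gly-GCC had 1.27 and 2.84 at 33 and 34 nt (0.42 and 1.20 without those draws). Glu-CTC had 1.74, 1.24 and 0.27 at 34, 35 and 36 nt (0.99, 1.33 and 0.27), and valine had 1.41 at 36 nt (0.95).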

How the data were processed

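Values are counts per distinct fragment sequence and library, whole numbers with no scaling, as deposited by the authors, with a deposited table of sequences. R 4.5.0, edgeR and limma are named in the submitters' processing notes. Per the labels' protocols, adapters were ligated to both ends and molecular identifiers were assigned at cDNA synthesis. The aligner, tRNA reference, mismatches allowed and collapsing of identifiers are not stated in any source used here, so intervals and floors cover counting error only, and the origin of substituted fragments was not tested. RefSeq (Panubis1.0) lists 6 TRNAG-CCC genes, which were used for their number only.

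Of 60201 lines, 1614 without an identifier (0.0805% of counts) were left out. Lengths come from the identifiers, and substitutions from comparison with the most abundant member of each length. A floor of 3 counts equals 0.480 to 15.1 CPM (per 1000000 counts of a library), and the Wilson 95% interval of the members' share is at most 0.217 percentage points to either side.

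The tests of changes used edgeR 4.0.16 under R 4.3.3: filterByExpr with a minimum count of 10, totals over all named fragments, scaling by TMM, and the quasi-likelihood F test (robust) in a model of animal and month over 40 libraries, two-sided, adjusted over 2447 fragments. Animals pair the libraries, since the labels draw each animal at every month; in deviations from month means, the mean correlation was 0.187 within animals and -0.0247 between them. Scripts were tested on simulated data. DESeq2 1.42.0 and limma 3.58.1 gave alternatives. Ratios used exact two-sided sign-flip tests over animals. Named members are the main fragment of each length, the 10 next most abundant, and up to 10 per comparison that passed and had 1 sign in 7 or more animals. The members, lists and comparisons were chosen with earlier results of these data known. The ratio, the last-base fragments and C26G by library were chosen after their values were seen.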

Additional observations from a re-analysis of the deposited data

Results flagged for a closer look

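Of 50 groups of 8 libraries (a measure of the members in a month), 10 held a value far from the other 7 by Dixon's test at its 95% critical value. Chance gives about 1 in 20 for normally distributed values in separate groups. These were unlogged percents and ratios whose measures overlap, and all 10 values were the highest of their group, so that rate may not hold here. In the members' share of the library, PA8001 at month 0 had 42.0% and the next animal 20.7%. In the 32-nt main fragment, PA8001 at month 0 had 23.9% and the next 9.79%, and PA8003 at month 15 had 48.1% and the next 24.1%. In the ratio of the 32-nt to the 30-nt main fragment, PA8003 at month 15 had 4.96 and the next 2.55. In the 33-nt main fragment, PA8914 at month 9 had 0.00807% and the next 0.00346%, and PA8001 at month 15 had 0.265% and the next 0.0568%. In the 35-nt main fragment, PA8003 at month 3 had 0.0443% and the next 0.0147%, and PA8001 at month 15 had 0.0910% and the next 0.0343%. In the 36-nt main fragment, PA8872 at month 0 had 0.00242% and the next 0.000299%, and PA8003 at month 3 had 0.00270% and the next 0.000440%. Of the 10 values, 4 were in libraries of PA8001 and 4 in libraries of PA8003, and 1 library, PA8001 at month 0, also had the lowest total of the 40, 198840 counts. The part of depth in these values was not tested.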

How the results depend on the processing

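No result changed its direction past the threshold. At month 15 against month 0, the 1 member that passed became 3 without the animal block, 4 with DESeq2, 2 with no filter, and 0 with limma-voom, with library totals alone in place of TMM, with a fit of only these 2 months, without the last draws of PA8001 and PA8003 (the 2 libraries below), without PA8001 at month 0, and with totals over tested fragments. Against month 3, 27 became 14 without the block, 5 with no filter, 5 with totals alone, 0 in the fit of only 2 months and 0 without the 2 libraries. Against month 6, 42 became 13 with no filter and 10 without the 2 libraries, and were 33 without the block. Against month 9, 39 became 7 with no filter, 14 with totals alone, 6 in the fit of only 2 months and 1 without the 2 libraries. In the joint test 31 became 14 with no filter, 8 with totals alone and 0 without the 2 libraries. Calls over all tested fragments fell too. Without the 2 libraries they were 0, 0, 99 and 16 at month 15 against months 0, 3, 6 and 9, and 0 in the joint test. The fit of only 2 months gave 0 of 1815 fragments against month 0 and 0 of 1868 against month 3. At month 6 against month 0, 2 members passed with no filter and 0 otherwise. With no filter more fragments share the adjustment; the cause of the other differences was not tested. No 30-nt member passed in any setting. Totals alone moved the median of all fragments at month 15 from -0.04 to 0.08 against month 9, and the members' from 0.93 to 0.96.

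Leaving out each animal gave 0 to 2 members against month 0, 0 to 33 against month 3, 30 to 47 against month 6, 11 to 45 against month 9, and 3 to 34 in the joint test (3 without PA8003, 5 without PA8873, 9 without PA8914), and 0 at months 3, 6 and 9 against month 0. Over all tested fragments the joint test gave 32 without PA8003, 100 without PA8873 and 124 without PA8914, from 397. The 32-nt main fragment at month 15 against month 0 passed with DESeq2 (0.97, adjusted p = 0.0429), without the block (1.53, 0.0499) and with no filter (0.79, 0.00258). As a share of the 25 to 36 nt fragments with the same start, the members held 42.8% at month 0 and 55.3% at month 15 (higher in 5 of 8 animals), or 39.1% ± 8.61 (SD, n = 7) without PA8001 at month 0 and 48.8% ± 9.39 (n = 6) without the 2 libraries. The log2 ratio of 32 to 30 nt was 0.69, 1.08 and 1.05 above months 0, 3 and 6 without the 2 libraries and 0.96 above month 0 without PA8001 there, with fewer animals and so a higher smallest p, and none of these passed. Without the 2 libraries no adjusted p under 0.05 could be reached at month 15 in this exact test, given the p-values of months 3, 6 and 9 against month 0. Leaving out each animal gave 0.64 to 1.03 against month 0, 1.01 to 1.40 against month 3, 1.04 to 1.50 against month 6 and 0.95 to 1.51 against month 9. The exact test's adjusted p was then 0.0365 to 0.0729, 0.0365 to 0.0547, 0.0365 to 0.0547 and 0.0547 to 0.109. It was under 0.05 against month 0 only without PA8912, and against months 3 and 6 only without PA8912 or PA8914. With 7 animals the smallest exact p is 0.0156. For months 3, 6 and 9 against month 0 the differences were -0.45 to -0.19, -0.66 to -0.36 and -0.56 to -0.26, where month 6 passed without PA8914 (exact test, adjusted p = 0.0365).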
